A study of Mus musculus with 8 samples.

Results

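*Art3* was examined in the fetal heart together with the genes that lie beside it on mouse chromosome 5. The members are 11 transcript rows of *Art3*, 7 under the symbol Art3 and 4 under the lower-case symbol art3, and 6 neighbours (*Sdad1*, *Cxcl9*, *Cxcl10*, *Cxcl11*, *Nup54* and *Scarb2*), each read from its row with the highest average of both genotype means. These 17 rows were taken from a table of 51414 rows under 26590 gene symbols. *Art3* was selected on its measured difference between the genotypes in these same hearts, so its values are given as a description without a test. The neighbours were chosen by their place beside *Art3*, with results of these data already known.

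Hearts of 4 *Dio3*+/+ and 4 *Dio3*-/- fetuses on the C57BL/6J background, each heart from 1 animal, were compared by RNA sequencing after depletion of ribosomal RNA. *Dio3*-/- fetuses carry a germline inactivation of *Dio3*, so every cell of the fetus lacks the enzyme and not the heart alone. The sample titles place all 8 hearts at E13.5. For *Dio3*-/- hearts 3 and 4 the labels' age entry reads E18.5 instead. The paper's Results text also gives E13.5 for the sequenced hearts, whereas its Methods and the legend of its heart expression figure state E14.5. The series text calls the hearts male, yet *Xist*, which marks a second X chromosome, averaged 35.64 RPKM in *Dio3*+/+ against 39.97 RPKM in *Dio3*-/- hearts, and each of 4 Y-linked genes had a coefficient of variation above 1 in both genotypes. The targeted gene did not check the genotype labels. *Dio3* averaged 0.35 RPKM (coefficient of variation 1.23) in *Dio3*+/+ against 0.13 RPKM (0.76) in *Dio3*-/- hearts.

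DIO3, the type 3 deiodinase, inactivates thyroxine and triiodothyronine, and its loss exposes fetal tissues to excess hormone. Triiodothyronine acts through nuclear receptors that bind DNA, often at repeats of the hexamer AGGTCA. ART3 belongs to the ecto-ADP-ribosyltransferases, proteins that are secreted or held at the cell surface by a glycosylphosphatidylinositol anchor. Unlike its relatives ART1 and ART5, ART3 lacks part of the catalytic motif, and no transferase activity is established for it. Testis, skeletal muscle and heart are its known sites of expression. The genes around *Art3* have unrelated roles. *Cxcl9* and *Cxcl10* encode interferon-induced chemokines that bind the receptor CXCR3. *Cxcl11* belongs to the same chemokine group, but RefSeq lists it as a transcribed pseudogene in this mouse genome. SDAD1 takes part in the assembly of the large ribosomal subunit, NUP54 lines the central channel of the nuclear pore, and SCARB2 (LIMP-2) is a membrane protein of lysosomes.

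In the RefSeq annotation of GRCm38.p6, the order on the chromosome is *Sdad1*, *Cxcl9*, *Art3*, *Cxcl10*, *Cxcl11*, *Nup54* and *Scarb2*. *Cxcl10* and *Cxcl11* lie within the span of *Art3*. *Art3* runs on the plus strand and all 6 neighbours on the minus strand in the GENCODE annotation. Whether reads were counted by strand is not given in the sources used here. RefSeq lists 3 starts of *Art3*, and the 250 bases before the first (upstream-most) and the second are shown because *Art3* is the gene of the locus whose transcripts differed between the genotypes. Both are printed 5′ to 3′ on the plus strand, with capitals for AGGTCA on either strand (TGACCT where it lies on the other strand) and for TATAAA on either strand (TTTATA on the other strand).
Art3 first start, chr5:92331577-92331826: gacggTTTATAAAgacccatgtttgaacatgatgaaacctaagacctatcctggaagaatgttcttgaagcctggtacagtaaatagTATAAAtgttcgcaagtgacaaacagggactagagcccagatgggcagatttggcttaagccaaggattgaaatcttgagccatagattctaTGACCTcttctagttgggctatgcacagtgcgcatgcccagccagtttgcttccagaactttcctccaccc
Art3 second start, chr5:92386637-92386886: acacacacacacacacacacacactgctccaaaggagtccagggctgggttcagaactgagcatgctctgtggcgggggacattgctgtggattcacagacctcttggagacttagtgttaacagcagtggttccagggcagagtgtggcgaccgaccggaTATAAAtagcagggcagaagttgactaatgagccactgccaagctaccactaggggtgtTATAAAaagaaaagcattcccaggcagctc

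The window of the first start held 1 AGGTCA, on the minus strand, with its left end at position −71 (counted from the start). That of the second start held none, and TATAAA began at positions −30 and −89. In the first window, the left-most TATAAA matches, 1 on each strand, overlapped. Among 32851 promoter windows of the same length, 14.0% held AGGTCA and 12.4% held TATAAA on either strand. The direct repeat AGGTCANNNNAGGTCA was found in 5 of the 32851 windows (0.0152%) and in none of the windows of *Art3*. Of the neighbours with a window, *Cxcl9* held AGGTCA (at position −85), and *Sdad1*, *Cxcl10*, *Nup54* and *Scarb2* did not. A match describes letters and not a binding site, and the rows of the table could not be assigned to a start.

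Every row of *Art3* was higher in *Dio3*-/- than in *Dio3*+/+ hearts by a similar factor. Over the 11 rows, the ratio of the *Dio3*-/- mean to the *Dio3*+/+ mean ranged from 3.91 to 4.38, with a median of 4.23. The row with the highest average (uc012dyq.1) averaged 7.56 RPKM in *Dio3*+/+ against 31.95 RPKM in *Dio3*-/- hearts. RPKM scales the reads of a transcript to its length and to the mapped reads of the sample, and the coefficient of variation is the SD over the hearts of a genotype divided by their mean, both as the authors' values. For this row the coefficients were 0.15 and 0.06. In bulk RNA, a change in the number of expressing cells and a change in RNA per cell cannot be told apart. Its log2 difference was 2.01 (standard error 0.10, 95% interval 1.80 to 2.22), on the log2(RPKM + 0.5) scale, which understates the difference of rows with low values.

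The table used here holds no value for a single heart, but the deposited summaries limit what a heart can show. Of 4 values, none can lie more than 1.5 SDs from their mean, so the mean and the coefficient of variation, each with its rounding error added, fix the widest range for any heart. For uc012dyq.1, this range was 5.80 to 9.32 RPKM in *Dio3*+/+ against 28.83 to 35.07 RPKM in *Dio3*-/- hearts. Thus each of the 4 *Dio3*-/- hearts was above each of the 4 *Dio3*+/+ hearts. The ranges of the genotypes were also apart in the other 10 rows. In the 10 rows above 1 RPKM in both genotypes, the lowest possible *Dio3*-/- heart was at least 3.06 times the highest possible *Dio3*+/+ heart. Across the table, 3.53% of 32703 tested rows had ranges that were apart with *Dio3*-/- higher. Since *Art3* was selected on this contrast, nothing is read from that share.

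**Figure D1:**
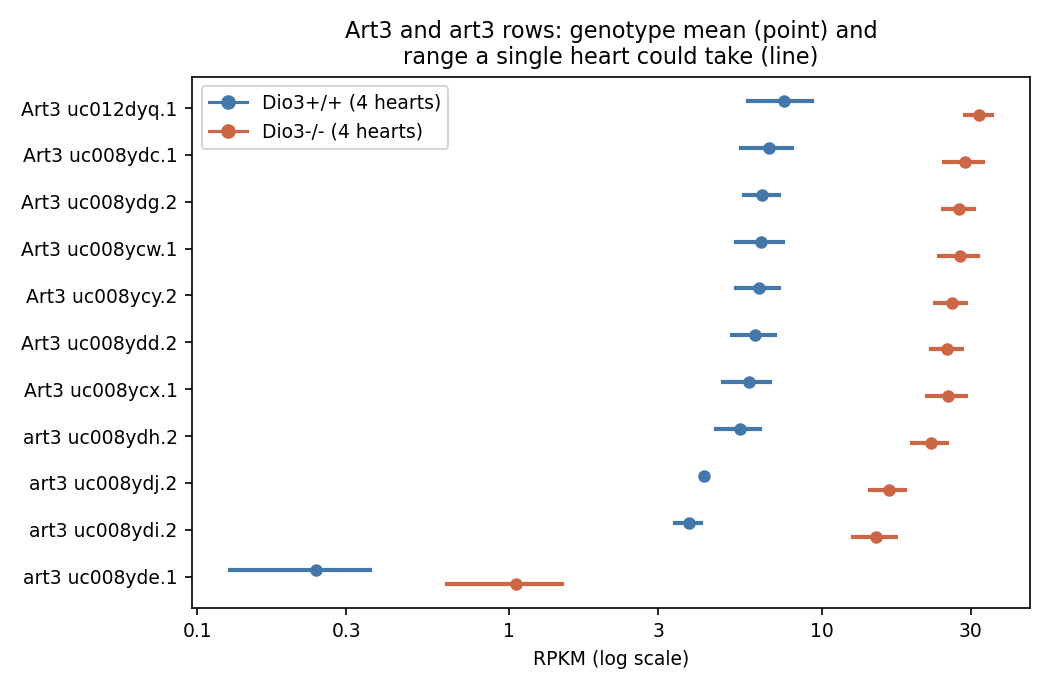
Mean of each genotype in RPKM on a log axis (points) and the widest range a single heart could take given the deposited mean and coefficient of variation (lines), for the 11 rows of Art3 and art3, with 4 hearts in each genotype. The Dio3-/- range lies to the right of the Dio3+/+ range in every row, including art3 uc008yde.1, which is far lower than the others.

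The rows differed in level more than in ratio. Under the symbol Art3, 7 rows averaged 5.84 to 7.56 RPKM in *Dio3*+/+ against 25.24 to 31.95 RPKM in *Dio3*-/- hearts, and ratios of 4.12 to 4.35. Under art3, uc008ydh.2 had 5.46 and 22.37 RPKM, uc008ydj.2 had 4.20 and 16.41 RPKM, and uc008ydi.2 had 3.75 and 14.95 RPKM. The ratios of these 3 rows were 4.10, 3.91 and 3.99, each below the lowest ratio under Art3. The standard error of a log2 ratio in the 10 higher rows was 0.06 to 0.12. The log2 ratios themselves ran from 1.97 to 2.12, and no test of a difference between rows was made. Transcripts of 1 gene share reads, and the 11 rows, measured in the same hearts, are not independent.

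The remaining row, art3 uc008yde.1, was low in both genotypes. It averaged 0.24 RPKM (coefficient of variation 0.30) in *Dio3*+/+ against 1.05 RPKM (0.26) in *Dio3*-/- hearts, a ratio of 4.38. The widest range for a heart was 0.13 to 0.36 RPKM in *Dio3*+/+ against 0.63 to 1.47 RPKM in *Dio3*-/- hearts. It passed the expression limit of 1 RPKM only through the *Dio3*-/- mean. Its log2 difference of 1.07 (standard error 0.15) is lower than that of the other rows on the scale with the pseudocount, whereas its ratio of means, from values rounded to 2 decimals, is close to theirs.

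The spread of *Art3* within a genotype was small beside the difference between the genotypes, but not smaller than that of a typical row. In the 10 higher rows, the coefficient of variation was 0.01 to 0.15 in *Dio3*+/+ and 0.06 to 0.10 in *Dio3*-/- hearts, with medians of 0.10 and 0.08. The medians over all tested rows were 0.09 and 0.06. This also bounds how far the *Dio3*-/- hearts with a deviating age field could differ from the others. With 4 values, the means of any 2 pairs differ by at most 1.73 SDs. For uc012dyq.1, the mean of *Dio3*-/- hearts 3 and 4 could therefore differ from that of hearts 1 and 2 by at most 11.3% of the *Dio3*-/- mean, and by at most 18.2% in any of the 10 higher rows. The single hearts themselves were not analysed here.

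Among all gene symbols, *Art3* ranked higher in *Dio3*-/- than in *Dio3*+/+ hearts. By the highest row of each gene symbol, 8351 of 26589 symbols had a higher mean than *Art3* in *Dio3*+/+ hearts and 2393 in *Dio3*-/- hearts, so that 68.6% and 91.0% of symbols were lower. These shares include symbols with little or no expression, since only 14657 symbols exceeded 1 RPKM in either genotype mean by that row. Within the locus, the order of the means in *Dio3*+/+ hearts was *Scarb2* (33.06 RPKM), *Nup54* (18.15), *Sdad1* (10.51) and *Art3* (7.56), followed by the chemokines. *Art3* and *Sdad1* were adjacent in this order, and their possible ranges (5.80 to 9.32 and 9.17 to 11.86 RPKM) overlapped. In *Dio3*-/- hearts the order was *Scarb2* (34.88 RPKM), *Art3* (31.95), *Nup54* (18.03) and *Sdad1* (10.62). There the ranges of *Scarb2* (33.57 to 36.19 RPKM) and *Art3* (28.83 to 35.07 RPKM) overlapped, and those of *Art3* and *Nup54* (16.27 to 19.79 RPKM) did not.

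**Figure D2:**
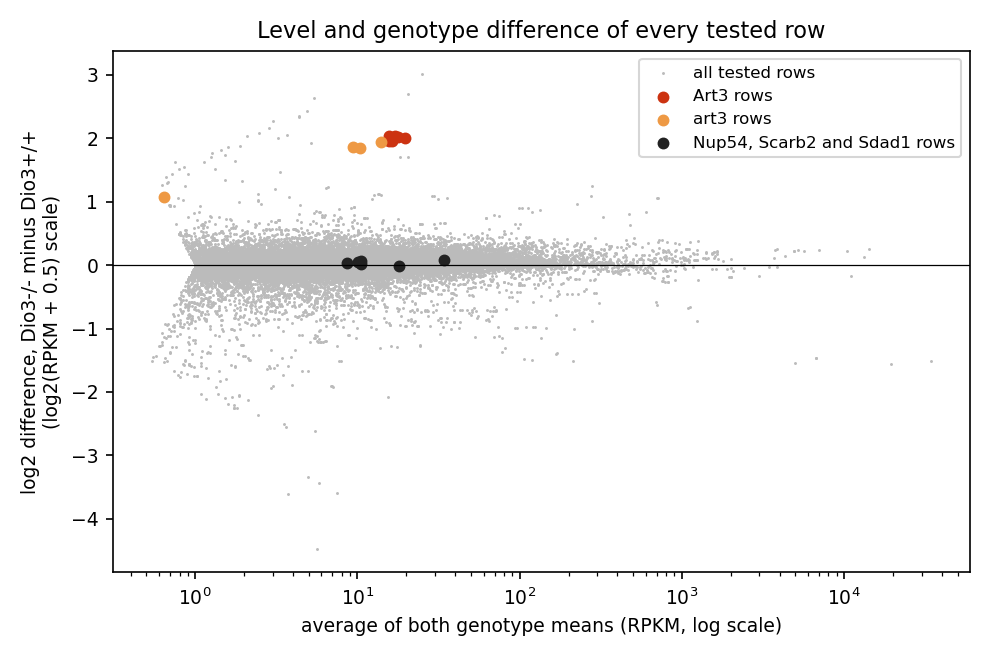
Log2 difference between the genotypes on the log2(RPKM + 0.5) scale against the average of both genotype means on a log axis, 1 point for each of the 32703 tested rows. The Art3 rows and all art3 rows but the lowest lie at log2 differences of 1.85 to 2.03, and the rows of Nup54, Scarb2 and Sdad1 lie close to 0.

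No tested neighbour passed the test, and the means of the genotypes were close in each. The moderated test of limma was fitted to the 32703 rows that exceeded 1 RPKM in either genotype mean. It called 2.15% of these rows at an adjusted *P* value under 0.05, and 2.29% of the 14657 gene symbols by their highest row. *Nup54*, *Scarb2* and *Sdad1* were tested, and 0 of 3 passed, 0 of 3 at an unadjusted *P* value under 0.05, which 19.7% of the gene symbols reached. With so few genes a count of 0 is also what the background share gives. *Cxcl9*, *Cxcl10* and *Cxcl11* stayed below 1 RPKM in both genotypes and were not tested.

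*Nup54*, whose 3′ end faces that of *Art3*, averaged 18.15 RPKM (coefficient of variation 0.04) in *Dio3*+/+ against 18.03 RPKM (0.06) in *Dio3*-/- hearts. The log2 difference was −0.01 (standard error 0.06, 95% interval −0.13 to 0.11, adjusted *P* = 0.952 by limma). The possible ranges of single hearts, 16.92 to 19.38 and 16.27 to 19.79 RPKM, overlapped almost completely. Its second row (uc008ydl.1) had 10.32 and 10.77 RPKM.

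*Sdad1* had 10.51 RPKM (0.08) in *Dio3*+/+ against 10.62 RPKM (0.08) in *Dio3*-/- hearts, a log2 difference of 0.01 (standard error 0.07, 95% interval −0.15 to 0.18, adjusted *P* = 0.943 by limma). The genotypes overlapped in possible range, with 9.17 to 11.86 RPKM and 9.26 to 11.98 RPKM. The other 2 rows of *Sdad1* had log2 differences of 0.03 and 0.06, with adjusted *P* values of 0.870 and 0.742 by limma.

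*Scarb2* showed the smallest spread between hearts. It averaged 33.06 RPKM (coefficient of variation 0.01) in *Dio3*+/+ against 34.88 RPKM (0.02) in *Dio3*-/- hearts. The log2 difference of 0.08 (standard error 0.04, 95% interval −0.01 to 0.16) had an unadjusted *P* value of 0.074 and an adjusted *P* value of 0.322 by limma. The possible ranges, 32.31 to 33.81 and 33.57 to 36.19 RPKM, overlapped by a narrow margin. The upper end of the interval is a small fraction of the log2 difference of 2.01 in *Art3*. With Welch's test from the same summaries, 1 of the 3 neighbours had an unadjusted *P* value under 0.05, and the adjusted *P* value of *Scarb2* was 0.174.

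**Figure D3:**
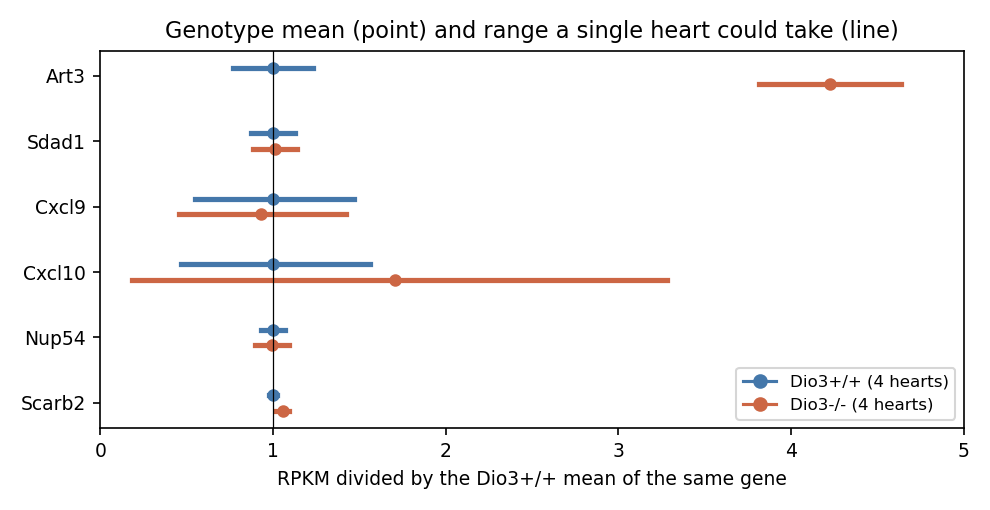
Genotype mean (points) and widest possible range of a single heart (lines), divided by the Dio3+/+ mean of the same gene, for the highest row of Art3 and for 5 neighbours (4 hearts in each genotype). Cxcl11 is left out because its Dio3+/+ mean, the divisor, is only 0.01 RPKM. The Dio3-/- range of Art3 lies far to the right of its Dio3+/+ range, whereas both ranges overlap in each of the 5 neighbours.

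The 3 chemokine genes were near the lower end of the table. *Cxcl9* had 0.28 RPKM (0.29) in *Dio3*+/+ against 0.26 RPKM (0.33) in *Dio3*-/- hearts. *Cxcl10* had 0.17 RPKM (0.34) and 0.29 RPKM (0.59), and its second row had 0.13 and 0.17 RPKM. *Cxcl11*, which RefSeq lists as a transcribed pseudogene in this mouse genome, had 0.01 RPKM (1.16) in *Dio3*+/+ hearts and is listed at 0 in *Dio3*-/- hearts at a coefficient of 2, the value that 4 hearts give when only 1 of them is above 0.

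For *Cxcl9* and *Cxcl10* the possible ranges of the genotypes overlapped, with 0.08 to 0.27 RPKM and 0.03 to 0.56 RPKM for *Cxcl10*. When all rows above 0 were tested, the adjusted *P* values by limma were 0.893 for *Cxcl9*, 0.505 for *Cxcl10* and 0.718 for *Cxcl11*. *Cxcl10* and *Cxcl11* lie inside *Art3*, and reads of *Art3* precursor RNA could be counted in their rows if strand was not used. These rows were at most 0.29 RPKM in *Dio3*-/- hearts, where *Art3* reached 31.95 RPKM. The part of *Art3* reads in them was not tested.

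Genes further out on either side also had small log2 differences. Of 16 genes placed from *Btc* to *Ccng2*, 15 were found in the table by symbol, 10 were tested, and 0 passed at an adjusted limma *P* value of 0.05, with 1 (*Parm1*) under 0.05 unadjusted, beside 2.29% and 19.7% of all symbols. Their log2 differences ran from −0.15 to 0.06, with a median of −0.01, beside a median of 0.04 over all tested gene symbols. The gene with the highest mean level, *Ccni*, a cyclin family member, had 103.27 RPKM (0.03) and 106.45 RPKM (0.02), a log2 difference of 0.04. *G3bp2*, a stress granule protein, had 44.09 RPKM (0.04) and 43.56 RPKM (0.02). *Parm1* had 38.54 RPKM (0.05) in *Dio3*+/+ against 34.59 RPKM (0.05) in *Dio3*-/- hearts, a log2 difference of −0.15 (standard error 0.05, adjusted *P* = 0.158 by limma). *Uso1*, a tether of transport vesicles at the Golgi, had 23.05 and 22.84 RPKM. *Septin11* was not found under its symbol. Some rows of the table carry a date in place of a gene symbol (such as 2-Sep), and *Septin11* was not searched for in that form.

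**Figure D4:**
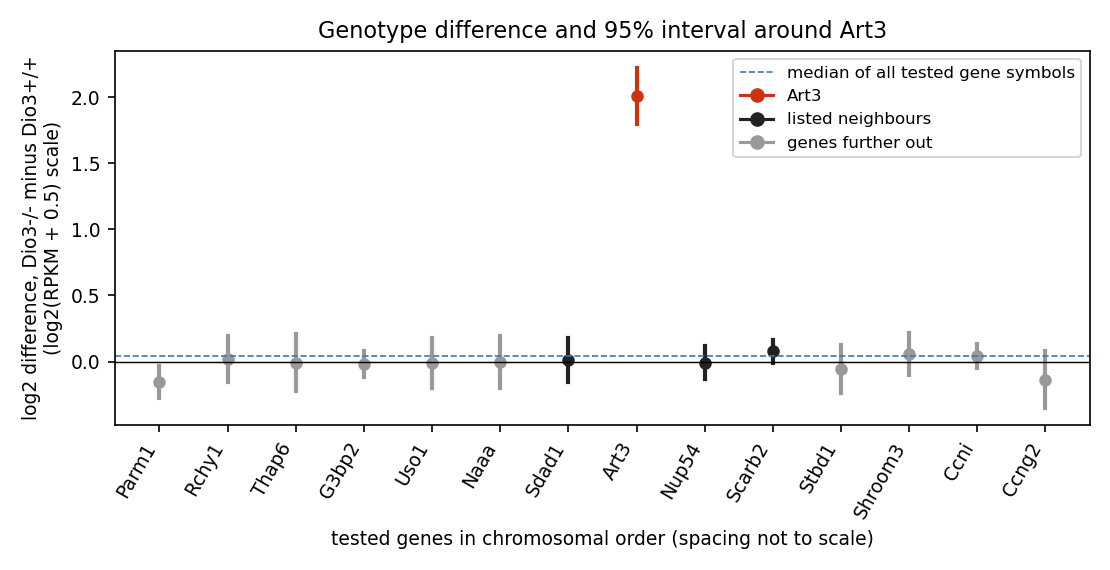
Log2 difference between the genotypes with its 95% interval for the tested genes of the locus, in chromosomal order and not to scale. Art3, selected for its difference, stands at 2.01, and the 13 other genes lie between −0.15 and 0.08.

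The relatives of *Art3* were compared next. Of 5 family members in the table, *Art1* and *Art4* were tested and neither passed (0 of 2, and 0 of 2 unadjusted), beside 2.29% and 19.7% of all symbols. A count of 0 among 2 genes is also what these shares give. *Art4*, which carries the Dombrock blood group in humans, had 10.63 RPKM (0.15) in *Dio3*+/+ against 11.69 RPKM (0.06) in *Dio3*-/- hearts, a log2 difference of 0.13 (95% interval −0.09 to 0.35, adjusted *P* = 0.517 by limma). *Art1*, an active arginine-specific transferase of muscle, had 1.17 RPKM (0.68) and 1.38 RPKM (0.10), a log2 difference of 0.17 (95% interval −0.47 to 0.81). *Art5* had 0.32 and 0.27 RPKM, *Art2a* 0.02 and 0.01 RPKM, and *Art2b* was listed at 0 in *Dio3*+/+ and at 0.02 RPKM in *Dio3*-/- hearts. In *Dio3*+/+ hearts the mean of *Art4* was thus above that of *Art3*, and in *Dio3*-/- hearts it was below.

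Other enzymes that add or remove ADP-ribose showed no member past the threshold. Of 23 found, 20 were tested and 0 passed at an adjusted limma *P* value of 0.05, with 1 (*Cd38*) under 0.05 unadjusted, beside 2.29% and 19.7% of all symbols. Their median log2 difference was 0.03, with a range from −0.10 to 0.28. *Adprhl1*, a heart-enriched relative of ADP-ribosylhydrolases, had 51.62 RPKM (0.20) and 62.61 RPKM (0.08), a log2 difference of 0.28 (standard error 0.13, adjusted *P* = 0.283 by limma). *Tnks2*, a tankyrase, had 58.12 and 59.70 RPKM. *Parp1*, the main nuclear poly(ADP-ribose) polymerase, had 41.76 and 42.26 RPKM, and *Adprh*, an ADP-ribosylarginine hydrolase, had 29.82 and 28.77 RPKM.

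Genes that work with the neighbours were compared in the same way. Of 16 genes for CXCR3 and interferon responses, 8 were tested and 1 was higher in *Dio3*-/- hearts, beside 2.29% called over all symbols, and 3 of 8 were under 0.05 unadjusted, beside 19.7%, with a median log2 difference of 0.05. That gene was *Irf1*, an interferon-induced transcription factor, with 2.66 RPKM (0.05) and 3.47 RPKM (0.05), a log2 difference of 0.33 (standard error 0.07, adjusted *P* = 0.042 by limma). Its adjusted *P* value was between 0.065 and 0.081 in 4 alternatives, so the call did not hold in them. *Cxcr3*, the receptor of the chemokines, had 0.04 and 0.02 RPKM, and *Ifng*, which encodes interferon gamma, had 0.04 and 0.01 RPKM. *Ifngr2*, a subunit of the interferon gamma receptor, had 43.71 and 50.62 RPKM (adjusted *P* = 0.130 by limma).

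Among 10 tested nuclear pore subunits, 0 passed the adjusted threshold and 3 were under 0.05 unadjusted, beside 2.29% and 19.7% of all symbols, with a median log2 difference of 0.06. *Nup62*, the partner of NUP54 in the central channel, had 40.93 RPKM (0.04) and 45.26 RPKM (0.04), a log2 difference of 0.14 (adjusted *P* = 0.143 by limma). Among 11 tested lysosomal genes, 0 passed and 1 was under 0.05 unadjusted, beside the same shares, with a median of −0.00. *Lamp1*, an abundant protein of the lysosomal membrane, had 125.4 and 125.3 RPKM. Of 13 assembly factors of the large ribosomal subunit, 0 passed and 2 were under 0.05 unadjusted, again beside 2.29% and 19.7%, with a median of 0.09. *Wdr12* had the largest log2 difference of these, 0.25 (adjusted *P* = 0.075 by limma). *Pes1*, its partner, had 18.94 and 19.73 RPKM.

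**Figure D5:**
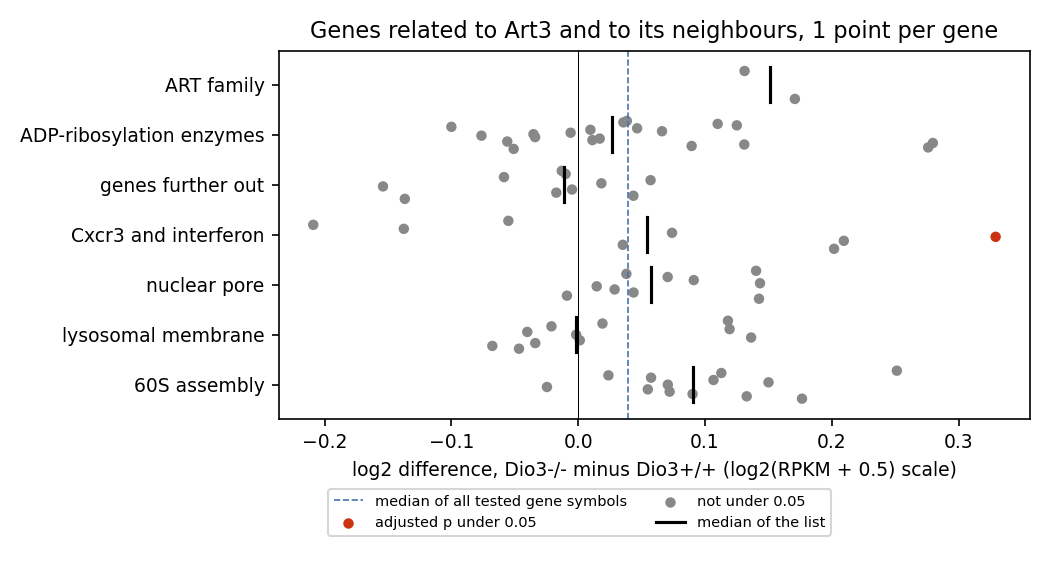
Log2 difference between the genotypes for each tested gene of 7 lists (points), with the median of each list (vertical bars) and the median of all tested gene symbols (dashed line). Irf1, at 0.33, is the only gene of these lists that passed the test.

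*Art3* stood next to 2 kinds of genes when all 14657 tested symbols were ordered by the log2 difference of their highest row. Besides *Art3* and art3, 9 of the other 14655 symbols had a higher log2 difference than *Art3* (*Afp*, *Alb*, *Serpina6*, *Apoa1*, *Serpina1b*, *Serpina1c*, *Serpina1d*, *Serpina1a* and *Ambp*), named after their values were seen. All 9 encode proteins that the liver secretes. Their coefficients of variation were 0.85 to 1.55 in *Dio3*+/+ and 1.05 to 1.26 in *Dio3*-/- hearts, against 0.15 and 0.06 for *Art3*. The 5 genes nearest to *Art3* in log2 difference were *Ambp*, *Serpina1a*, *Serpina1d*, *Klf9* and *Itih2*, with gaps of 0.03 to 0.13. Of these 5, *Klf9*, a transcription factor induced by thyroid hormone, was the one with a small spread. It had 1.86 RPKM (0.14) and 8.48 RPKM (0.07), a log2 difference of 1.93. The likeness rests on 2 genotype means and not on single hearts.

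*Art3* is expressed in skeletal muscle and testis, and markers of these tissues were therefore set beside it. All 13 skeletal muscle markers were in the table, and 0 of 9 tested passed, beside 2.29% of all tested gene symbols. At an unadjusted *P* value under 0.05 there were 6 of 9, 4 lower and 2 higher in *Dio3*-/- hearts, beside 19.7% of all symbols. Among the lower ones, *Myod1*, a determination factor of the lineage, had 4.42 RPKM (1.62) in *Dio3*+/+ against 0.46 RPKM (1.18) in *Dio3*-/- hearts, and *Myog*, which drives its differentiation, had 9.78 RPKM (1.56) and 1.17 RPKM (0.86). Both higher ones, which heart muscle also expresses, were *Ckm*, a creatine kinase, with 50.40 RPKM (0.33) and 87.79 RPKM (0.23), and *Acta1*, an actin of striated muscle, with 113.8 RPKM (0.17) and 149.8 RPKM (0.05). The other 4 markers (*Pax3*, *Pax7*, *Myf5* and *Myf6*) stayed below 1 RPKM and were not tested. The summed level of the 13 markers was 229.9 RPKM in *Dio3*+/+ against 253.5 RPKM in *Dio3*-/- hearts, most of it *Acta1* and *Ckm*. The part of skeletal muscle in the difference of *Art3* was not tested. Of 4 germ cell markers 1 was tested and 0 passed (0 unadjusted), with levels up to 1.61 and 1.85 RPKM (*Sycp3*, a meiotic chromosome protein), and *Ddx4* had 0.39 and 0.28 RPKM and *Dazl* 0.04 and 0.06 RPKM.

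Markers of other cell types in the dissected hearts were summed in each genotype, and their counts stand against the same shares over all tested gene symbols, 2.29% called and 19.7% under 0.05 unadjusted. The 9 heart muscle markers summed to 12450 RPKM in *Dio3*+/+ against 14810 RPKM in *Dio3*-/- hearts. Of these, 2 of 9 passed (*Myh6* and *Ryr2*, both higher), and 5 of 9 were under 0.05 unadjusted, all higher. *Tnnt2* had 1212 and 1281 RPKM, so the tissue label fitted its markers. The 8 liver markers summed to 15.98 and 108.1 RPKM, with 0 of 8 passing and 8 of 8 under 0.05 unadjusted. Of 8 red cell markers, 6 were found by symbol, and these summed to 37270 and 12750 RPKM. Of the 6, 1 (*Hbb-bh1*, lower) passed, and 6 of 6 were under 0.05 unadjusted, all lower. The 9 leukocyte markers summed to 38.52 and 36.46 RPKM, and the 7 endothelial markers to 254.4 and 272.2 RPKM, with none passing among 7 tested in each list (0 and 2 unadjusted). Their part in the difference of *Art3* was not tested.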

How the data were processed

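Total RNA of each heart was sequenced after ribosomal RNA depletion. Per the labels and the Methods, the authors checked reads with FastQC, aligned single-end reads with Novoalign (version 2.08), kept uniquely mapping reads and scaled all samples to that of lowest read count. The genome build is not given in the sources used here. The authors deposited 1 table with a mean for each genotype, read here as RPKM, and a coefficient of variation, a ratio of SD to mean, both rounded to 2 decimals. The table names no unit. Mean times length of the longest transcript (GENCODE M21), summed over 19414 matched gene symbols, came to 1.11 times the total that RPKM values would reach, and to 0.54 and 0.52 times with the median transcript length. Read totals per heart are not in the table, so depth is unknown from it and no interval for counting error is given. The deposited *q* values and fold changes were not used.

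The design assumed, and the table provides, only genotype summaries. For each row, log2(mean + 0.5) was taken, its SD was derived from the coefficient of variation by the delta method, and limma (3.58.1, in R 4.3.3) moderated the pooled variance, which has 6 residual degrees of freedom, along a trend with the mean. *P* values are two-sided, with Benjamini-Hochberg adjustment over the 32703 rows exceeding 1 RPKM in either genotype mean. The test was also run on simulated rows, drawn independently and with equal, capped coefficients of variation in both genotypes. Real rows share reads and differ in spread, so nothing is concluded from that run. *P* values by limma rest on the spread between 4 fetuses in each genotype and on the trend over all rows. The trend adds 3.52 prior degrees of freedom. For *Scarb2* the moderated standard error was 0.038, against 0.016 for the log2 ratio from its own hearts. Log2 differences are *Dio3*-/- minus *Dio3*+/+. Ranges for single hearts assume that the SD has n − 1 in its denominator, as the largest coefficient in the table (2) requires with 4 values. Gene lists used the highest row of each symbol.

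Members and lists were chosen with earlier results of these data known. Named were all members, list genes that passed, up to 4 other genes of a pathway list with the highest average level, and the 5 genes nearest to *Art3* in log2 difference. *Art2b*, *Cd38*, *Wdr12*, *Cxcr3*, *Ifng* and the cell type markers given singly were named after their values were seen. Some list members are not reported here. Promoter sequences are from RefSeq (GRCm38.p6), of which 6 of the 7 genes had a window. Python (version 3.11.15), numpy (2.4.6), pandas (2.3.3) and matplotlib (3.10.9) were used. Alternatives were 2 pseudocounts, 2 filters, no trend, 1 row per gene, Welch's test, centring on the median log2 difference and a larger coefficient of variation.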

Additional observations from a re-analysis of the deposited data

How the results depend on the processing

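No paired analysis was possible because the deposited columns carry no single hearts, and leaving out each heart in turn was not run for the same reason. The number of rows past the threshold, 703, was 431 without a filter on low values, 319 with 1 row per gene (fewer rows tested), 394 when centred on the median log2 difference of 0.04, 414 with each coefficient of variation raised by 0.005 and 62 with Welch's test. The count of 0 among the tested neighbours was 0 under all 9 alternatives, with 0 or 1 unadjusted. For *Scarb2* the adjusted *P* values ran from 0.174 to 0.689 and for *Nup54* from 0.740 to 0.969. The log2 difference of *Sdad1* was −0.0235 when centred, so it has no stable direction. The log2 difference of the highest *Art3* row was 1.95 to 2.06 over 8 alternatives. The interferon list had 1 gene past the threshold and 0 without a filter, with Welch's test, when centred, with raised coefficients of variation, and with an average above 5 RPKM, where *Irf1* was not tested. The counts of the other 6 lists were 0 throughout. Rounding to 2 decimals limits rows such as *Cxcl11*.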
